A study of Homo sapiens with 3 samples.

Results

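RBM17 eCLIP reads in K562 cells were examined over the transcripts of 10 kinases and cyclins of splicing control: the L-type cyclins CCNL1 and CCNL2, the CDC2-like kinases CLK1, CLK2, CLK3 and CLK4, the SR protein kinases SRPK1 and SRPK2, and the transcription kinases CDK12 and CDK13. Members were found by the Ensembl identifier in the names of the replicate 2 clusters, which gave 10 of 10872 named genes. The span of a gene is the stretch from its first to its last replicate 2 cluster, and same-strand replicate 1 clusters and reproducible peaks within it were assigned to it. The 10 spans held 268 of 137095 replicate 1 clusters, 226 of 119066 replicate 2 clusters and 15 of 866 reproducible peaks. The genes are listed by name, but the replicate 2 clusters set their spans, and with them which replicate 1 clusters and peaks count and the length behind values per kb. No span overlapped that of another gene on the same strand (0 cases).

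K562 is an established chronic myelogenous leukemia line, and the cells were neither modified nor treated before crosslinking. In eCLIP, ultraviolet light links a protein to the RNA it touches, the protein is immunoprecipitated, and the RNA fragments bound to it are sequenced. Cells were irradiated at 254 nm and 400 mJ/cm2, and RBM17 was pulled down with 10 µg of an antibody mixture in 2 replicates. The size-matched input was 1 library from 2% of the immunoprecipitation mix, taken before washing and cut from the same gel range of 50 to 125 kDa. Both replicates are compared with this 1 input, and no sample lacking RBM17 was analysed here. All 10 erythroid and K562 marker genes examined had a replicate 2 cluster, whereas 0 of 6 markers of other blood cells had one.

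CLK and SRPK kinases phosphorylate the arginine- and serine-rich domains of SR proteins, with SRPKs acting mainly in the cytoplasm and CLKs in the nucleus. Cyclins L1 and L2 carry such a domain themselves and pair with CDK11 kinases, whereas CDK12 and CDK13 pair with cyclin K and phosphorylate RNA polymerase II. Several of these genes, CLK1 being the best-known case, keep part of their polyadenylated RNA in the nucleus with unspliced, so-called detained, introns. RBM17, also called SPF45, is a splicing factor that takes part in recognition of the 3′ splice site.

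Introns of these genes appear in the GENCODE v44 annotation (hg38) as well. Transcripts of the class retained intron numbered 16 for CCNL1, 9 for CCNL2, 8 each for CLK1 and CLK3, 7 for CLK4, 6 for CDK13, 4 for SRPK1, 3 for CDK12 and 2 for SRPK2. CLK2 had 0 such transcripts, and 48.2% of all 20046 protein coding genes had at least 1. An intron of the canonical transcript lay whole inside an exon of such a transcript in CCNL1 (6 of 10 introns), CLK1 (4 of 12), CLK4 (4 of 12), CLK3 (2 of 12) and SRPK1 (1 of 15), and in none of CCNL2, CLK2, SRPK2, CDK12 and CDK13 (0 each). The splice sites below show what a retained intron looks like at both ends in CCNL1, CLK1, CLK3 and CLK4, the members that have one and also an enriched replicate 1 cluster. For each gene they belong to the canonical intron found whole in the largest number of such transcripts, the most 5′ one where several tie. That number is small, 2 of 16 in CCNL1, 2 of 8 in CLK1 and in CLK3, and 2 of 7 in CLK4. Capitals mark the 10 exon bases and lower case the 20 intron bases, all in hg38 and written 5′ to 3′ along the transcript.
CCNL1 intron 4, 5′ splice site, minus strand, chr3:157153016-157153045: TCCTCATAAGgtgagttgtagagtacagaa
CCNL1 intron 4, 3′ splice site, minus strand, chr3:157152232-157152261: ttttttcccttgtccttcagATCATTGTTA
CLK1 intron 4, 5′ splice site, minus strand, chr2:200860105-200860134: AGTGCAAGATgtatagaatatttttcaaca
CLK1 intron 4, 3′ splice site, minus strand, chr2:200859737-200859766: gatttatttctctcttttagATGAAATTGT
CLK3 intron 3, 5′ splice site, plus strand, chr15:74620216-74620245: CGCCTCCTCGgtgagtggtagccagagtgt
CLK3 intron 3, 3′ splice site, plus strand, chr15:74622100-74622129: tcggggggcggtgcatgcagAGAAGCCAAC
CLK4 intron 3, 5′ splice site, minus strand, chr5:178618536-178618565: GTCACGTTCGgtatgattggttttgttttc
CLK4 intron 3, 3′ splice site, minus strand, chr5:178617425-178617454: ctgcccacttgccgttccagAAGAGCCACC
These introns are 794 bp long in CCNL1, 378 bp in CLK1, 1894 bp in CLK3 and 1121 bp in CLK4. The eCLIP intervals are in hg19, so they were not placed on these introns, and the sequence under the peaks was not analysed here.

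RBM17 reads were densest on the cyclin L transcripts. A cluster is a stretch where the authors' peak caller found reads piled up. The reads of replicate 2 are stated for each cluster, whereas those of replicate 1 and the input were inferred here from the fold and p of each cluster. Per kb of span, CCNL2 had 244 reads in replicate 1 clusters and 105 in replicate 2 clusters, and CCNL1 had 208 and 34.8. The level fell to 70.2 and 11.9 for CLK1, 36.6 and 6.20 for CLK3, 12.3 and 18.1 for CLK2, and 11.6 and 2.22 for CLK4. SRPK1 had 4.36 and 4.16, while CDK12 with 0.740 and 1.76, CDK13 with 0.640 and 0.565, and SRPK2 with 0.586 and 0.553 were lowest in both replicates. CCNL2 and CCNL1 ranked highest in both libraries, whereas CLK2 lay above CLK1 and CLK3, and SRPK1 above CLK4, in replicate 2 alone. With 2 libraries no neighbouring pair was tested. The median gene had 4.02 replicate 2 reads per kb. Reads of a bulk library follow the amount of a transcript as well as binding, and neither the share of cells that express a gene nor the RNA per cell can be told apart in them. For this reason the input is given beside the reads. Under the replicate 1 clusters it was also densest on the cyclin L genes, at 42.6 reads per kb in CCNL2 and 21.3 in CCNL1. It was 8.48 in CLK1, 4.26 in CLK3, 4.05 in CLK2, 3.33 in SRPK1 and 2.34 in CLK4. CDK12, CDK13 and SRPK2 had 0.523, 0.441 and 0.260.

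**Figure D1:**
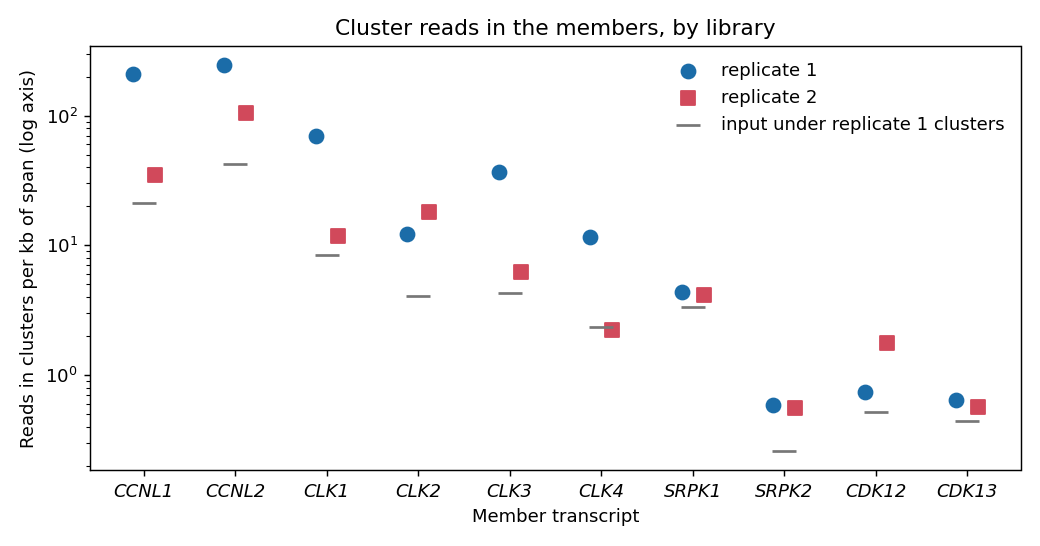
Reads in clusters per kb of span (log axis) for each member, in replicate 1 (circles), replicate 2 (squares) and the input under the replicate 1 clusters (dashes). Each point is 1 library, and the replicate 1 points of CCNL1 and CCNL2, at 208 and 244, lie highest, while SRPK2, CDK12 and CDK13 lie below 2 reads per kb in every library.

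Enrichment over the input split the members. Of the 10 members, 2 had a reproducible peak, namely CCNL1 with 8 and CCNL2 with 7, against 4.07% of all genes. The paper states the significance cutoff of its peak list as an FDR. A peak of the authors' list reaches 3 in both its log2 fold over the input and its −log10 p, with both replicates considered. In replicate 1 alone, 5 of 10 members (CCNL1, CCNL2, CLK1, CLK3 and CLK4) had at least 1 cluster past the same values, here called an enriched cluster, against 16.2% of genes. Among single clusters, 79 of the 268 in members were enriched, or 29.5% (exact Clopper-Pearson 95% interval 24.1 to 35.3%), against 5.35% of all replicate 1 clusters. CCNL1 holds 36 of the 79, and without it the share was 19.6% (14.6 to 25.5%). Clusters of 1 gene share their transcript and library, so these intervals cover counting error only.

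By role, 54 of 91 replicate 1 clusters were enriched in the cyclin L genes (59.3%, interval 48.5 to 69.5%) and 25 of 72 in the CLK genes (34.7%, 23.9 to 46.9%). The SRPK genes had 0 of 72, with an interval up to 4.99%. CDK12 with CDK13 had 0 of 33, with an interval up to 10.6%. Even at 1 input read, an enriched cluster needs 13 replicate 1 reads. The largest replicate 1 cluster held 11 reads in SRPK2 and 8 in CDK13, so neither could have an enriched cluster. In CDK12 the largest held 14, over 8 in the input, and in SRPK1 it held 32. The intervals of the cyclin L and CLK genes lie above the 5.35% of all clusters. The CLK share rests on CLK1 (16 of 30) and CLK3 (8 of 20), beside 1 of 13 in CLK4 and 0 of 9 in CLK2. The SRPK limit of 4.99% lies just below 5.35%, and the interval of CDK12 with CDK13 includes it. With so few reads, the SRPK and CDK genes are not placed above or below all clusters. The median log2 fold of the clusters was 3.73 in CCNL1, 3.23 in CLK1, 3.07 in CLK3, 2.93 in CCNL2, 2.19 in CLK4 and 1.77 in CLK2. It was 1.58 in SRPK2, 0.84 in CDK12, 0.77 in CDK13 and 0.60 in SRPK1, beside 1.51 over all clusters. Lowest and highest folds overlapped between neighbours throughout, and the highest reached 5.62 in CCNL1 and 5.58 in CLK3.

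**Figure D2:**
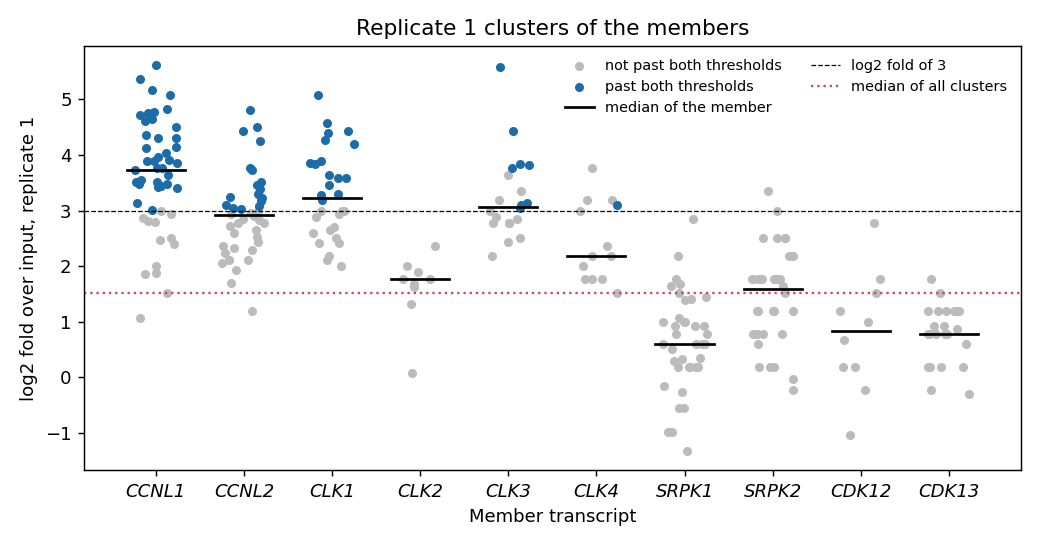
log2 fold over input of each replicate 1 cluster of the members, 1 point a cluster, with enriched clusters in blue, the member's median as a bar, the value of 3 as a dashed line and the median of all 137095 clusters (1.51) as a dotted line. Blue points occur in CCNL1, CCNL2, CLK1, CLK3 and CLK4, and 0 of the clusters of CLK2, SRPK1, SRPK2, CDK12 and CDK13 are blue.

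CCNL1, which encodes cyclin L1, was 1 of 12 genes with 8 or more reproducible peaks. Its 49 replicate 1 clusters held 2430 reads against 249 in the input, a log2 fold of 3.48 over the gene that lies at the 99.2 percentile of genes, and the median gene stood at 1.11. In replicate 2 its 28 clusters held 406 reads, at the 96.4 percentile. The read total of replicate 1 was thus 5.99 times that of replicate 2, over 2260 bp of clusters at 1.08 reads per bp against 1180 bp at 0.344 reads per bp. Over all genes the median ratio was 1.03, with quartiles of 0.527 and 1.83, and the replicate 2 library held 0.766 times the reads of replicate 1.

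Enriched clusters of CCNL1 lay between 0.0225 and 11.5 kb of a span of 11.663 kb, with a gap from 3.20 to 6.91 kb in which 4 replicate 1 clusters were not enriched. The peaks lay in 3 stretches, near the 5′ end, near 3 kb and between 7 and 8 kb. The peak at chr3:156877854-156877928 (hg19, minus strand), 0.0375 kb from the 5′ end of the span, was annotated as coding sequence with 5′ UTR. It had 60 reads in replicate 1, 21 in replicate 2 and 2 in the input. The log2 fold over input was 5.10 in replicate 1 and 3.97 in replicate 2, with a mean of 4.53 ± 0.80 (SD, n = 2). The coding peak at chr3:156877658-156877758 had 76, 27 and 2 reads and the highest mean fold of the members, 4.88 ± 0.78. The third of this stretch, chr3:156877338-156877385, was annotated as proximal intron with a 3′ splice site, and its 39, 13 and 1 reads gave 4.88 ± 0.85. The 3 peaks at the 5′ end thus had 1 or 2 input reads each, and both replicates were above a log2 fold of 3 at each.

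Of the 5 peaks farther along CCNL1, 2 had wider gaps between replicates than those at the 5′ end and 3 had narrower ones. At chr3:156874854-156874904, coding sequence with a 3′ splice site 3.05 kb from the 5′ end, 104 reads of replicate 1 and 20 of replicate 2 over 6 in the input gave log2 folds of 4.31 and 2.31 (mean 3.31 ± 1.41). At chr3:156870494-156870579, in a proximal intron, 129 and 25 reads over 3 gave 5.62 and 3.63 (mean 4.62 ± 1.40). These are the members' peaks with the widest gap between replicates, the largest difference being 1.99. The remaining CCNL1 peaks were chr3:156870914-156870953 (coding, with a 3′ splice site; mean 3.18 ± 0.51), chr3:156869975-156869982 (coding; 4.39 ± 0.70) and chr3:156869908-156869943 (5′ splice site; 4.11 ± 0.76). Replicate 1 exceeded replicate 2 at 8 of 8 CCNL1 peaks, by a median of 1.12, and 6 of 8 were at 3 or above in each replicate. Over all peaks for which both folds could be found, replicate 1 was higher at 632 of 841, by a median of 0.53.

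CCNL2, which encodes cyclin L2, had the most reads of the members in both replicates and its peaks differed less between replicates than those of CCNL1. Its 42 replicate 1 clusters held 2958 reads against 516 in the input (log2 fold 2.71, at the 96.5 percentile), and its 27 replicate 2 clusters held 1272 reads, at the 99.4 percentile. The ratio of the replicates was 2.33, over 1642 bp of clusters at 1.80 reads per bp and 1098 bp at 1.16. Of the 27 replicate 2 clusters, 26 overlapped a replicate 1 cluster and 24 had a peak caller p of at most 1e-10. That p is not relative to the input, and 8.07% of all replicate 2 clusters reached it. Only 18 of the 42 replicate 1 clusters (42.9%) were enriched, against 36 of 49 (73.5%) in CCNL1.

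Reads on CCNL2 gathered in 1 part of the transcript. A window of 2 kb that began 6.43 kb from the 5′ end of the 12.101 kb span held 60.4% of its replicate 1 reads and 75.9% of its replicate 2 reads. The densest window of CCNL1, from 6.84 kb in replicate 1 and 6.83 kb in replicate 2, held 34.9% and 39.2%. In CCNL2 the input was high there too. Its replicate 1 cluster with the most reads, 206, had 48 reads in the input, and its log2 fold of 2.29 did not reach 3.

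Inside this window of CCNL2 lay 4 of its 7 peaks. At chr1:1326869-1326957, annotated as distal intron, 152 reads in replicate 1 and 125 in replicate 2 over 17 in the input gave log2 folds of 3.35 and 3.45 (mean 3.40 ± 0.07, SD, n = 2), with the largest −log10 p among the members' peaks, 28.3. The abutting intervals chr1:1326749-1326811 (distal intron) and chr1:1326689-1326748 (proximal and distal intron) had means of 3.23 ± 0.23 and 4.37 ± 0.17. The last of these had 99, 64 and 5 reads and the highest mean fold of the CCNL2 peaks. A replicate 1 cluster outside the peaks, chr1:1323338-1323348, was higher at 4.80 (49 reads against 2) and had no replicate 2 cluster over it. The most 5′ peak of the window, chr1:1327835-1327855, was annotated as 3′ UTR, with 31, 27 and 4 reads and a mean of 3.24 ± 0.13. The gaps between replicates here were smaller than at any CCNL1 peak.

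Outside the window, CCNL2 had a proximal intron peak at chr1:1329022-1329059 (mean 3.22 ± 0.79) and coding peaks at chr1:1325612-1325623 (3.52 ± 0.30) and chr1:1323165-1323187 (3.32 ± 0.32). Replicate 1 was higher at 5 of 7 CCNL2 peaks, and 6 of 7 were at 3 or above in each replicate. The median SD of the log2 fold was 0.23 over CCNL2 peaks and 0.79 over CCNL1 peaks, beside 0.44 over all peaks. The SD covers the 2 immunoprecipitations alone, because both folds share the 1 input.

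**Figure D3:**
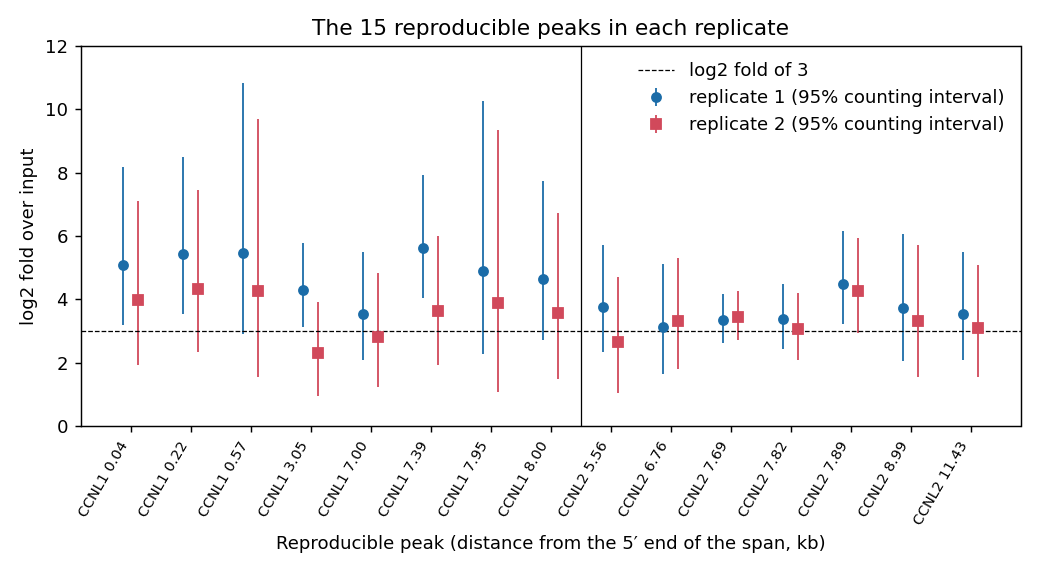
log2 fold over input in replicate 1 (circles) and replicate 2 (squares) at the 15 reproducible peaks, named by gene and distance from the 5′ end of the span in kb, with exact 95% counting intervals and the value of 3 dashed. Circles lie above squares at 8 of 8 CCNL1 peaks and 5 of 7 CCNL2 peaks, and intervals are widest where the input had 1 read.

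CLK1, a nuclear kinase of SR proteins, had a replicate 1 fold close to that of CCNL1 but 0 reproducible peaks. Its 30 replicate 1 clusters held 662 reads against 80 in the input, a log2 fold of 3.24 at the 98.7 percentile of genes, and 16 of the 30 were enriched. Replicate 2 had 112 reads in 16 clusters, so that the ratio of replicates was 5.91 (1214 bp of clusters at 0.545 reads per bp and 514 bp at 0.218). Enriched clusters ran from 0.0285 to 8.25 kb of the 9.43 kb span. The strongest, chr2:201728229-201728285 at the 5′ end, had 59 reads against 2 (log2 fold 5.07, exact 95% interval 3.16 to 8.15), and the replicate 2 cluster over it had 10 reads. The largest replicate 2 cluster of CLK1, chr2:201725516-201725571 with 14 reads, had 0 replicate 1 clusters over it.

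CLK3, a further nuclear CLK kinase, had 396 replicate 1 reads in 20 clusters against 46 in the input (log2 fold 3.30, at the 98.9 percentile), and 8 of the 20 were enriched. All 8 lay between 1.15 and 3.20 kb of the 10.809 kb span. The 2 kb window densest in replicate 1 reads, from 1.15 kb, held 72.0% of them but 13 of 67 replicate 2 reads (19.4%). Replicate 2 was densest from 2.53 kb, where a window held 37.3% of its reads. Replicate 2 had 67 reads in 14 clusters, a ratio of 5.91 (931 bp at 0.425 reads per bp and 649 bp at 0.103). The strongest cluster, chr15:74914062-74914148 on the plus strand, had 42 reads against 1 (log2 fold 5.58, interval 3.03 to 10.9), and the replicate 2 cluster there had 5 reads. Its largest replicate 2 cluster, chr15:74917211-74917337, had 10 reads over a replicate 1 cluster of 10 reads against 2 (log2 fold 2.51).

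CLK4, the close relative of CLK1, had the fewest replicate 2 reads of the members, 18 in 5 clusters, and 94 replicate 1 reads in 13 clusters against 19 in the input (log2 fold 2.50, at the 94.2 percentile). Its 1 enriched cluster, chr5:178045686-178045784, had 15 reads against 2 (log2 fold 3.10, interval 0.99 to 6.27) and 0 replicate 2 clusters over it. Its largest replicate 2 clusters had 4 reads each and were 3 in number, among them chr5:178043883-178043894. The ratio of replicates was 5.22 (525 bp at 0.179 reads per bp and 145 bp at 0.124).

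CCNL1, CLK1, CLK3 and CLK4 each had at least 5 times as many reads in replicate 1 as in replicate 2 (ratios 5.22 to 5.99), as did 3.45% of all genes with a replicate 1 cluster. The other 6 members had ratios from 0.421 to 2.33. Few replicate 2 clusters of these CLK genes had the reads that a call over the input takes. At 1 input read, the lowest number the folds allow, a cluster needs 13 reads in replicate 1 or 10 reads in replicate 2 to reach both values of 3, and at 2 input reads it needs 15 or 12. Replicate 2 clusters with 10 reads or more numbered 22 in CCNL1 and 27 in CCNL2, but 4 in CLK1, 1 in CLK3 and 0 in CLK4. The replicate 2 library was 0.766 times as large as that of replicate 1, a smaller difference than these ratios, and what else moves with them was not tested.

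**Figure D4:**
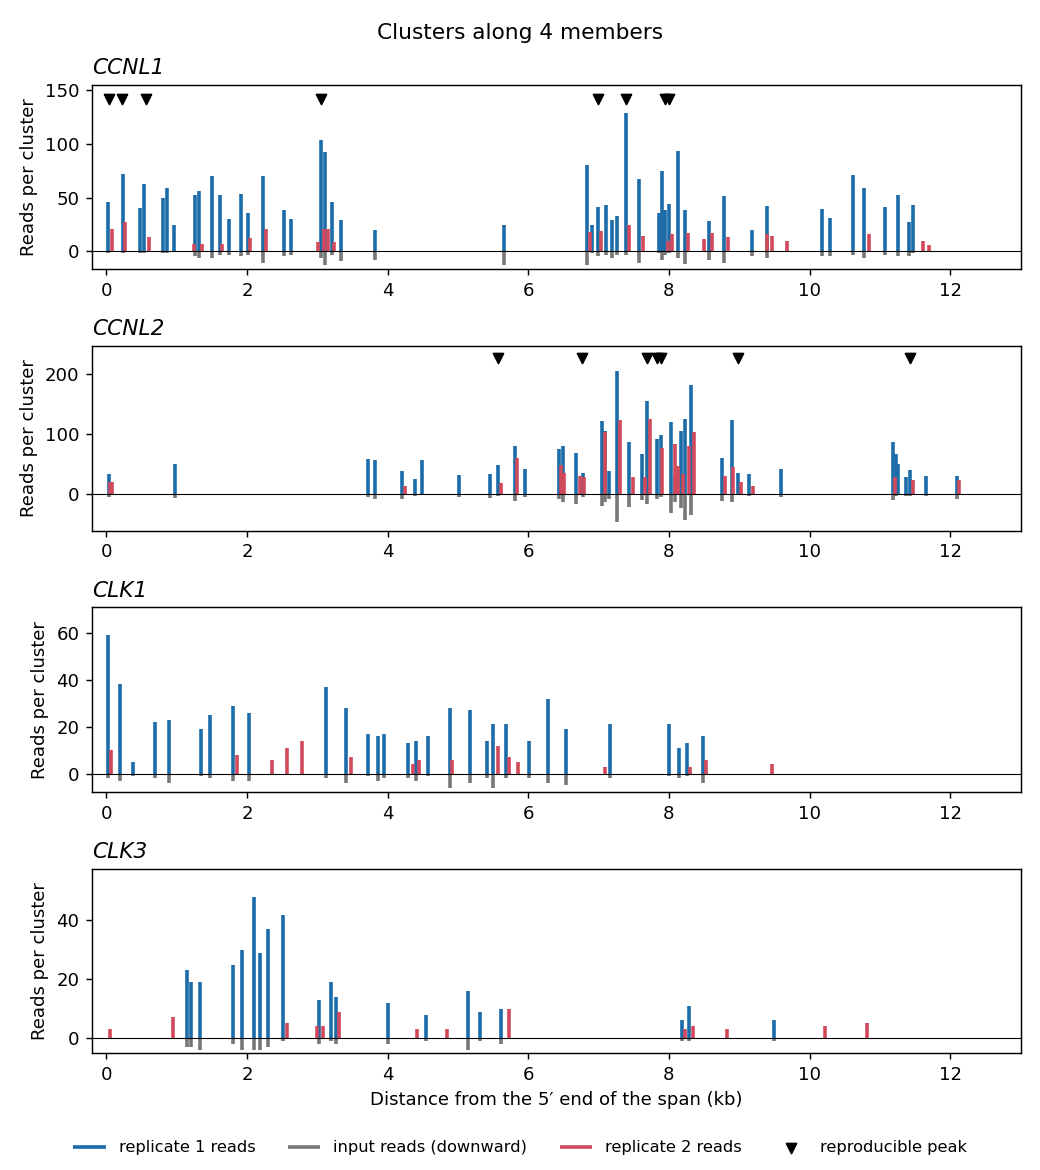
Reads per cluster against distance from the 5′ end of the span (kb) in CCNL1, CCNL2, CLK1 and CLK3, with replicate 1 in blue, replicate 2 in red, the input under replicate 1 clusters drawn downward in grey, and reproducible peaks as triangles. Replicate 1 lines are sparse in CCNL1 between 3.20 and 6.91 kb and dense on both sides, gather in the 2 kb from 6.43 kb in CCNL2 and between 1.15 and 3.20 kb in CLK3, and replicate 2 lines are short in CLK1 and CLK3.

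In CLK2, 0 of 9 replicate 1 clusters were enriched although 10 of its 12 replicate 2 clusters had 10 reads or more. CLK1 had 16 of 30 enriched and CLK3 8 of 20, and differences between these genes were not tested. CLK4, with 1 of 13 enriched, cannot be told apart from CLK2 by this count. CLK2 had 174 reads in replicate 2 and 118 in replicate 1, a ratio of 0.678 (505 bp at 0.345 reads per bp and 419 bp at 0.282), and 39 in the input. The log2 fold over the gene was 1.79, at the 80.4 percentile. Its highest replicate 1 cluster, chr1:155238853-155238899, had 18 reads against 4 (log2 fold 2.36, interval 0.76 to 4.38), and the replicate 2 cluster over it had 31 reads and a caller p of 5.12e-22. Among members, 4 of 10 had a replicate 2 cluster at a caller p of at most 1e-10 (CCNL2 24 clusters, SRPK1 8, CLK2 4 and CDK12 1), against 20.3% of genes. CCNL1, CLK1 and CLK3 had 0 such clusters, so the caller p of replicate 2 and the fold over input of replicate 1 ranked the members differently. The 2 measures come from different libraries, so a difference between measures cannot be told apart from one between replicates.

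SRPK1, a kinase that readies SR proteins for nuclear import, had many reads and little enrichment. It had 360 reads in 45 replicate 2 clusters, at the 95.8 percentile, and 377 reads in 38 replicate 1 clusters, but also 288 reads in the input, a log2 fold of 0.58 at the 28.5 percentile. In 10 of its clusters several read numbers were possible and the smallest were taken. At its largest replicate 2 cluster, chr6:35838078-35838214 with 29 reads and a caller p of 1.16e-21, replicate 1 had 23 reads and the input 21 (log2 fold 0.32). Of its 8 clusters at a caller p of at most 1e-10, 5 had a replicate 1 cluster, with log2 folds from -0.16 to 1.39. The highest fold of SRPK1, 2.85 at chr6:35807053-35807107 (19 reads against 3), had no replicate 2 cluster over it. SRPK2, its paralog, spread 151 replicate 2 reads and 160 replicate 1 reads over 273.19 kb, with 71 in the input (log2 fold 1.36, at the 61.5 percentile). Its highest cluster, chr7:104785707-104785752, rested on 9 reads against 1 (log2 fold 3.36, interval 0.51 to 8.81, −log10 p 2.10). The largest replicate 2 cluster of SRPK2, chr7:104787049-104787107 with 12 reads, had no replicate 1 cluster over it.

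CDK12, a kinase of the RNA polymerase II tail, had 121 reads in replicate 2, 51 in replicate 1 and 36 in the input, a log2 fold of 0.69 at the 32.0 percentile. Its largest replicate 2 cluster lay at the 5′ end, chr17:37617786-37617897, with 17 reads, and the replicate 1 cluster there had 14 reads against 8 (log2 fold 1.00). The replicate 1 cluster of CDK12 with the highest −log10 p, chr17:37681036-37681093, had 6 reads against 1 (log2 fold 2.77, interval -0.27 to 8.30). CDK13, the paralog of CDK12, had 82, 93 and 64 reads and a log2 fold of 0.73 at the 33.2 percentile. Its largest replicate 2 cluster and its replicate 1 cluster of highest −log10 p overlapped, chr7:40037833-40037954 in replicate 2 and chr7:40037903-40037963 in replicate 1, with 8 reads in each and 4 in the input (log2 fold 1.19). CDK12 and CDK13 thus lay below the median gene fold of 1.11, as did SRPK1, and the other 7 members lay above it.

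The replicates met most often on the cyclin L genes. Of the 226 replicate 2 clusters in members, 101 overlapped a replicate 1 cluster (44.7%, interval 38.1 to 51.4%), against 31.9% of all replicate 2 clusters. The share was 47 of 55 in the cyclin L genes (85.5%), 24 of 47 in the CLK genes (51.1%), 23 of 80 in the SRPK genes (28.8%) and 7 of 44 in CDK12 and CDK13 (15.9%). Stronger clusters overlap more often in general, since among all replicate 2 clusters with a caller p of at most 1e-10 the share was 78.7%. On the opposite strand, 0 replicate 1 clusters lay in the spans. The processed pseudogenes CLK2P1, CLK3P2, CCNL2P1 and SRPK2P had 0 replicate 2 clusters of their own.

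Other genes of the same pathway were listed by role. Of the genes listed as partners of the members (CCNK, CDK10, CDK11A and CDK11B), all 4 had a replicate 2 cluster. An enriched replicate 1 cluster was found in 2 and a reproducible peak in 0. CDK10 had the most replicate 2 reads, 140, but whether it pairs with a member was not examined. Transcription kinases and cyclins gave 6 of 6, 2 and 0, led by CCNH with 95 reads. Other kinases of splicing factors gave 7 of 9, 4 and 0, led by the pre-mRNA processing kinase PRPF4B with 355 reads. The phosphatases, which reverse this phosphorylation, gave 6 of 6, 1 and 0, led by PPP1CC with 232 reads. In all, 9 of these 25 genes had an enriched replicate 1 cluster, against 16.2% of all genes with a replicate 2 cluster. A reproducible peak was found in 0 of the 25, which is near the 4.07% of all genes at this number.

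Of the 14 SR and TRA2 proteins that CLK and SRPK kinases phosphorylate, 12 had a replicate 2 cluster. An enriched replicate 1 cluster was found in 9 and a reproducible peak in 6, with 21 peaks in all. Among all genes with a replicate 2 cluster, 16.2% had an enriched cluster and 4.07% a peak. SRSF6 had 8 peaks, SRSF7 5, SRSF1 3, SRSF2 and SRSF5 2 each, and SRSF4 1. SRSF6 matched CCNL1 in its number of peaks, and its gene log2 fold of 4.18 lay above the 3.48 of CCNL1. SRSF11 had the most replicate 2 reads of the substrates, 1543, with 0 enriched clusters and a gene log2 fold of 1.32.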

How the data were processed

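The authors ran a published eCLIP pipeline (the submitters' notes name cutadapt and STAR; versions are not given in the sources used here). Replicate 1 clusters carry a deposited −log10 p, limited to 400, and a deposited log2 fold over the input. Replicate 2 clusters carry the peak caller's p-value as the authors left it, at most 0.05 and not relative to the input, and a name with gene and reads. Each reproducible peak has a single value of both kinds from the authors. Chromosome 1 positions run past its hg38 length, so hg19 was assumed. Region words of peaks come from the study's annotation. Replicates are numbered 1 and 2 by the sample descriptions, whereas the titles say 2 and 3, and the labels do not state separate cultures.

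Reads of replicate 1 and the input were inferred. Fold and p were solved for whole reads, with an input of 0 counted as 1. The fold was a ratio of reads scaled by library size (input to replicate 1, 1.14, and input to replicate 2, 1.49). The p was taken from a chi-square test. Where reads were fewer than 5, an exact binomial test stood in for Fisher's exact test. Solutions existed for 99.7% of replicate 1 clusters (log2 tolerance 2e-06, relative −log10 p tolerance 0.01), of which 22943 allowed several multiples and the smallest was taken. Among the members' clusters 25 were of this kind, all in SRPK1, SRPK2, CDK12 and CDK13, and 1 in CLK2 had no solution and is left out of its reads. A peak's fold equalled the mean of both replicates and its −log10 p the smaller, which gave 1 solution for 841 of 866 peaks. The method was chosen after the data were seen and was checked on simulated clusters. These were made with the same formulas, so the check covers the solving step alone. It cannot show that the deposited values follow the formulas or that an input of 0 was counted as 1. The solution for peaks was not simulated.

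Overlaps needed 1 bp on the same strand (bedtools 2.31.1; Python 3.11.15, pandas 2.3.3, numpy 2.4.6, scipy 1.17.1, matplotlib 3.10.9, samtools 1.23.1). Cluster reads summed to 1534933 in replicate 1 and 1336569 in replicate 2, and reads spanning adjacent clusters may count in each. With 1 treatment no test between groups was possible, so values stand beside those of all genes, with exact Clopper-Pearson 95% intervals. All 10 members are named. Clusters given in full are all peaks and, for other members, the replicate 1 cluster of highest fold among those of −log10 p at least 3 (otherwise of highest −log10 p) and the largest replicate 2 cluster. Members and lists were chosen with earlier results of these data known.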

Additional observations from a re-analysis of the deposited data

How the results depend on the processing

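No paired analysis was possible because the 2 replicates belong to 1 group and the input is 1 library. The count of members with a reproducible peak was 2. With 1 replicate alone other criteria had to be used, which gave 5 members with an enriched replicate 1 cluster and 4 with a replicate 2 cluster at a caller p of at most 1e-10, a different criterion that is not relative to the input and that leaves out CCNL1. The count stayed at 2 under stricter peaks and with strand ignored. The 15 peaks became 7 at a log2 fold of at least 4 and 9 at a −log10 p of at least 5. The 29.5% of enriched replicate 1 clusters fell to 10.8% at a log2 fold of at least 4, where all clusters stood at 2.28%, and to 19.6% without CCNL1. The median percentile of members by replicate 2 reads, 84.3, became 55.2 per kb of span and 87.0 by clusters. The members thus rank high by total reads but near the middle per kb. By reads of clusters with a caller p of at most 1e-10 it was 39.9, the rank shared by all genes without such a cluster. Only 4 members had such a cluster, so this value does not place the members. The 44.7% of replicate 2 clusters met by replicate 1 became 37.2% with 50% overlap, 89.2% at a caller p of at most 1e-10 and 0% on the opposite strand. The median position of the reads along the span, 0.600 of its length from the 5′ end, became 0.584 by clusters and 0.552 in replicate 1 alone. Alternatives chosen after seeing the data were leaving out CCNL1, at least 3 input reads (30.7% enriched, against 3.13% of all clusters) and a log2 fold of at least 3 in each replicate (12 peaks). Gene and cluster folds of all members rest on replicate 1 alone, and only the folds of the 15 peaks use both replicates. CLK1, CLK3 and CLK4 had no peak, and their replicate 1 clusters had few input reads.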
